A study of Sus scrofa with 12 samples.

Results

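The genes described here were PPAR receptors, their lipid-response targets and enzymes of fatty acid oxidation in porcine aortic valve interstitial cells (paVICs). The 9 genes were chosen by symbol, with earlier results of these data known. All 9 had a row among the 31908 genes of the count table: ANGPTL4, PDK4, PLIN2, CPT1A, ACADVL, HADHA, CD36, PPARA and PPARD. Of these, 8 passed edgeR's filter on low counts, as did 13216 genes in all. Cells were wild type and were exposed for 24 h to vehicle, 10 µM lysophosphatidylcholine (LPC), 60 µM dantrolene, or LPC + dantrolene, with 3 libraries in each group. By the labels, vehicle cells were given 0.6% DMSO and 0.1% ethanol, LPC cells 0.6% DMSO, and dantrolene cells 0.1% ethanol. The paper dissolved dantrolene in DMSO and LPC in ethanol, so each agent brought its own solvent. The labels do not give the amount of solvent that came with an agent. LPC is a phospholipid that carries a single fatty acyl chain, and dantrolene is a muscle relaxant that inhibits ryanodine receptors. The replicate number was taken to mark a separate primary isolation. Each isolation was made from the pooled valves of several pigs and cultured on its own day. Libraries that share a number were thus taken to share their cells, although the main fit has no term for the isolation. The deposited counts had already been adjusted for the isolation.

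PPARs are nuclear receptors that bind fatty acids and their derivatives, pair with a retinoid X receptor (RXR), and switch on genes for the storage, uptake and burning of lipid. PPARα is best known from liver and heart, PPARδ is found in most tissues, and PPARγ drives fat cell formation. Among their targets, ANGPTL4 encodes a secreted inhibitor of lipoprotein lipase, and PDK4 encodes a kinase that shuts off pyruvate dehydrogenase and so spares glucose while fatty acids are burned. PLIN2 coats lipid droplets, and CPT1A on the outer mitochondrial membrane makes the acylcarnitines that carry fatty acids into mitochondria. Inside, the very long chain acyl-CoA dehydrogenase ACADVL and the trifunctional protein subunit HADHA carry out steps of β-oxidation. CD36 takes up fatty acids at the cell surface.

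Total counts lay between 16489684 and 24105935 per library, and 3 counts corresponded to between 0.114 and 0.186 CPM, which is the lowest level taken as detected and reflects counting error alone. CPM express each count against its library total after TMM scaling, with factors of 0.863 to 1.15. The 12 fibroblast and valve interstitial markers were all tested, with summed levels between 69915 and 136058 CPM, while PTPRC, CD163 and LYZ of the leukocyte markers and the adipocyte marker ADIPOQ had no count. Summed leukocyte markers (9 genes, 2 tested) lay between 12.6 and 28.8 CPM. The 2 tested were CD14 and CD68, with 4021 and 429 counts in all, and neither was called in any comparison. CD14, with group means between 15.8 and 18.9 CPM, made up most of these sums. No cardiomyocyte or erythroid marker passed the filter. Replicate 2 of LPC + dantrolene stood apart, with correlations of log2 CPM of 0.901 and 0.917 to the other libraries of its group against 0.949 to 0.975 between all other replicates, and results that rest on it are given with and without it. Since levels per transcript length were not computed, levels are compared between groups and not between genes.

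In the RefSeq annotation of Sscrofa11.1, matched by symbol, the tested targets lie at chr2:70905767-70912892 (ANGPTL4), chr9:75246956-75260134 (PDK4), chr1:203683867-203709277 (PLIN2) and chr2:4250642-4293914 (CPT1A). The enzymes lie at chr12:52573521-52581755 (ACADVL) and chr3:112753343-112797627 (HADHA), CD36 lies at chr9:99685748-99782296, and the receptors lie at chr5:3302755-3321091 (PPARA) and chr7:31222533-31295221 (PPARD). All 9 are annotated as protein-coding. The span of PDK4 overlaps that of ASB4, which had 0 counts in 10 libraries and 1 count in each of 2, and that of the lncRNA LOC106504960, whose counts were not analysed here, while ACADVL overlaps the ends of DLG4 and DVL2, both with at least 155 counts in every library, and PLIN2 overlaps a transcribed pseudogene. Whether reads were assigned by strand is not given in the sources used here, so reads shared by overlapping genes, above all at ACADVL, cannot be told apart.

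The first comparison asked which of these genes LPC changed in paVICs. LPC raised 2 of the 8 tested members, ANGPTL4 and PDK4, and lowered none (edgeR's quasi-likelihood test, Benjamini-Hochberg adjusted p under 0.05), beside 8.69% of all 13216 genes called, 8.54% higher and 0.144% lower. ANGPTL4 was at 20.7, 51.1 and 33.6 CPM in the vehicle libraries of isolations 1, 2 and 3, and at 123, 124 and 85.7 CPM with LPC. Every LPC library lay above every vehicle library, and as a ratio the smallest rise within an isolation was in isolation 2, whose vehicle level was the highest. The mean rose from 35.1 ± 15.3 to 111 ± 21.8 CPM (SD, n = 3), a 3.15-fold change (log2 fold change 1.66, SE 0.339, 95% interval 0.98 to 2.33, edgeR adjusted p = 0.000197). In such bulk libraries, more RNA per cell and more cells that make it cannot be told apart.

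PDK4 was read at a far lower depth, with 16 to 31 counts in the vehicle libraries and 220 to 299 with LPC. Its levels were 1.48, 1.58 and 0.929 CPM with vehicle and 15.3, 15.6 and 11.3 CPM with LPC. Isolation 3 was the lowest of its group in both conditions, and the log2 difference between LPC and vehicle was nearly the same in each isolation, at 3.28, 3.22 and 3.47. By p-value PDK4 ranked 3 of 13216 genes in this comparison (10.5-fold higher, edgeR adjusted p = 7.32e-07), while ANGPTL4 ranked 320. Summed endothelial markers (10 genes, 9 tested, none without a count) lay between 92.8 and 96.3 CPM with vehicle and between 69.2 and 76.7 CPM with LPC. None of the 9 tested was called with LPC. PECAM1 and CDH5 made up most of the sums, and TEK alone had a higher mean with LPC (1.02 CPM) than with vehicle (0.275 CPM). The part of these markers in the results was not tested.

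PLIN2, the lipid droplet coat protein, was at 55.7, 59.9 and 58.3 CPM with vehicle and at 69.5, 136 and 92.6 CPM with LPC. The groups did not overlap, but the LPC libraries were spread widely around a mean of 99.4 ± 33.9 CPM, and the gene was not called (log2 difference 0.78, 95% interval 0.14 to 1.41, edgeR adjusted p = 0.147). DESeq2's Wald test called PLIN2 here (adjusted p = 0.0312), and so did edgeR on the vehicle and LPC libraries alone (adjusted p = 0.0157) and without replicate 2 of LPC + dantrolene (adjusted p = 0.0163). Without replicate 2 of LPC, the highest, the log2 difference was 0.48 (edgeR adjusted p = 0.531).

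None of the oxidation genes or receptors was called with LPC. CPT1A was at 133, 261 and 189 CPM with vehicle and at 247, 168 and 300 CPM with LPC, higher in isolations 1 and 3 and lower in isolation 2 (log2 difference 0.30, 95% interval −0.35 to 0.94, edgeR adjusted p = 0.689). ACADVL lay between 63.1 and 89.4 CPM with vehicle and between 58.6 and 72.2 CPM with LPC, and was the lower with LPC in 3 of 3 isolations without being called (log2 difference −0.25, 95% interval −0.90 to 0.40, edgeR adjusted p = 0.731). For HADHA the ranges were 135 to 224 CPM with vehicle and 134 to 194 CPM with LPC (log2 difference −0.17, 95% interval −0.82 to 0.48). These intervals hold changes of either sign.

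PPARA was at 12.01, 8.58 and 9.99 CPM with vehicle and at 7.89, 6.84 and 10.7 CPM with LPC. PPARD was at 36.2, 53.9 and 45.2 CPM with vehicle and at 40.8, 20.4 and 34.7 CPM with LPC. For both receptors the groups overlapped, and the log2 differences were −0.26 for PPARA (95% interval −0.96 to 0.43, edgeR adjusted p = 0.733) and −0.50 for PPARD (95% interval −1.15 to 0.15, edgeR adjusted p = 0.529). CD36 had no count in 11 libraries and 1 count in replicate 3 of LPC + dantrolene, so its level was at or under the floor throughout and no comparison was made. The median log2 change over the 8 tested genes was 0.06, beside −0.18 over all genes tested. The plot of CPM in each library shows the separation of ANGPTL4 and PDK4 and the overlap of the receptors.

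**Figure D1:**
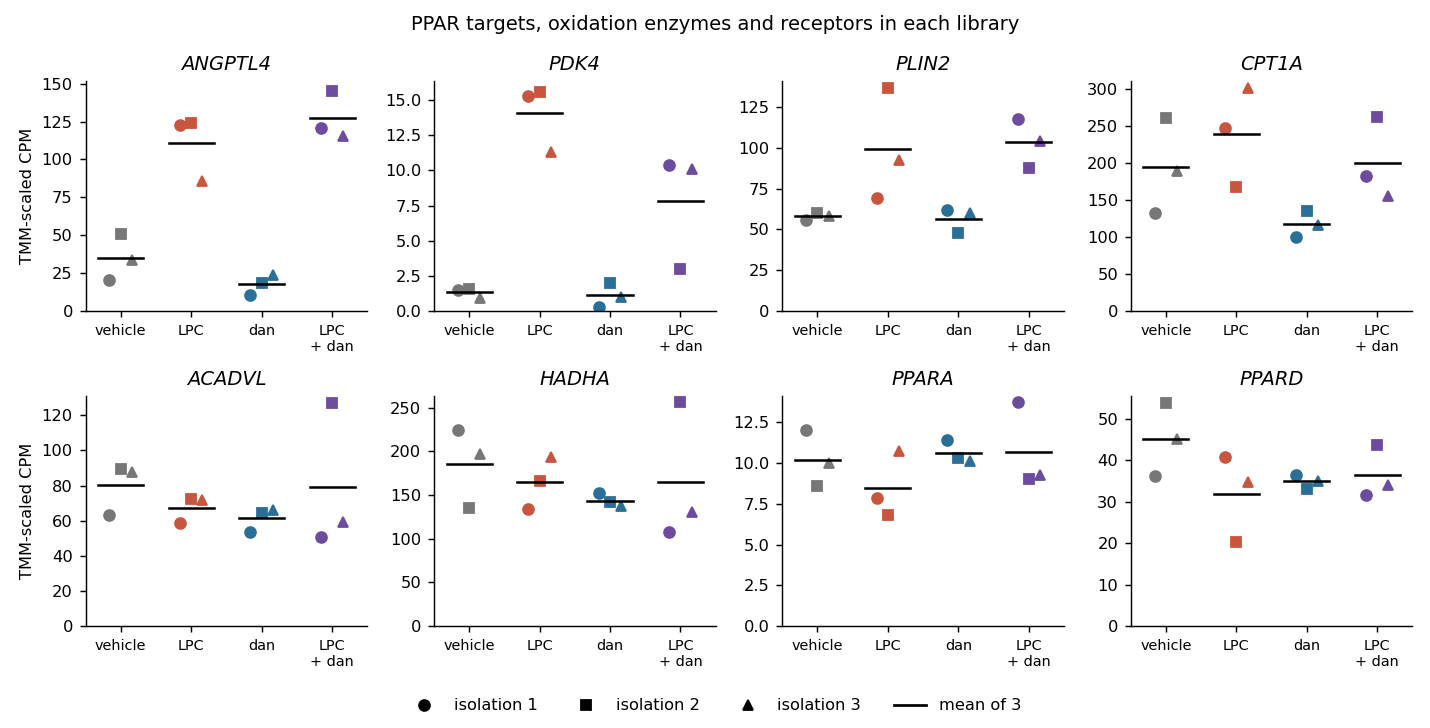
TMM-scaled CPM (y axes, linear and from 0, a scale of its own for each gene) of the 8 tested genes in vehicle, LPC, dantrolene (dan) and LPC + dantrolene libraries, with 1 point per library, the marker shape giving the isolation and the bar the mean of 3. ANGPTL4 and PDK4 lie higher in all 6 libraries with LPC than in all 6 without it, whereas PPARA and PPARD overlap between all groups.

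The second comparison asked what dantrolene did on its own. No member was called (8 tested, edgeR's quasi-likelihood test), beside 8.8% of all genes called, 7.54% higher and 1.26% lower. At an unadjusted p under 0.05, 2146 of the 13216 genes passed, ANGPTL4 and CPT1A among them, and DESeq2's Wald test called no member either. ANGPTL4 was at 10.9, 18.7 and 23.6 CPM with dantrolene, lower than vehicle in 3 of 3 isolations although the highest dantrolene library lay above the lowest vehicle library. Its log2 difference was −0.98 (95% interval −1.65 to −0.31), with an edgeR adjusted p of 0.0501 that lay at the threshold. Across the alternatives this adjusted p ran from 0.0173 to 0.546, and ANGPTL4 was called in 7 of 19, among them without replicate 2 of LPC + dantrolene (log2 change −0.92, edgeR adjusted p = 0.0173) and without replicate 3 of dantrolene (log2 change −1.24, edgeR adjusted p = 0.0428).

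CPT1A showed a like pattern, at 100, 136 and 117 CPM with dantrolene, lower than vehicle in 3 of 3 isolations and not called (log2 difference −0.72, 95% interval −1.37 to −0.07, edgeR adjusted p = 0.210). PDK4 was at 0.328, 1.98 and 1.04 CPM, or 6, 52 and 19 counts. It was lower than vehicle in isolation 1 and higher in isolations 2 and 3 (log2 difference −0.22, 95% interval −1.15 to 0.71, edgeR adjusted p = 0.868). PLIN2, at 62.1, 47.5 and 60.3 CPM, overlapped the vehicle libraries (log2 difference −0.03, 95% interval −0.67 to 0.60). The differences of ACADVL (−0.38), HADHA (−0.37), PPARA (0.06) and PPARD (−0.37) on the log2 scale all had 95% intervals that spanned 0.

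Of the 8 members, 7 had a negative log2 difference with dantrolene, with a median of −0.37 beside −0.11 over all genes, but PDK4 and PLIN2 turned to 0.03 and 0.20 with total counts in place of TMM factors. That change of scaling moved the median of all genes to 0.13 here, from −0.18 to −0.0023 for LPC against vehicle, and from −0.08 to 0.12 for LPC + dantrolene against vehicle. Summed endothelial markers were lower with dantrolene (53.5 to 70.8 CPM) than with vehicle, and CDH5, an adhesion molecule of endothelial cells, was the single marker of that list called lower (log2 change −1.20, edgeR adjusted p = 0.0111), though not without replicate 2 of vehicle, replicate 2 or 3 of dantrolene, or TMM scaling (0.0929, 0.0891, 0.0615 and 0.0758). Summed adipocyte markers (6 genes, 3 tested, ADIPOQ without a count) lay between 3.85 and 7.33 CPM with dantrolene and between 9.86 and 10.96 CPM with vehicle. With LPC + dantrolene they lay between 6.20 and 12.6 CPM, which overlapped vehicle. The lipase LIPE, which was not called, made up most of these sums, with means of 7.42 CPM with vehicle and 5.13 CPM with dantrolene. Of these markers LEP, the fat cell hormone leptin, had 0, 39 and 16 counts with vehicle and none in the 6 libraries with dantrolene. It passed the filter on low counts only through libraries without dantrolene. Its lower calls with dantrolene and with LPC + dantrolene, both lost without replicate 2 of vehicle, are therefore not read as a result. Its counts are given as a description, with no fold and no p. Of the interstitial markers LUM, a matrix proteoglycan, was called higher with LPC, dantrolene and LPC + dantrolene (log2 change 1.35, 1.59 and 1.35, edgeR adjusted p = 0.00351, 0.000608 and 0.00420). Without replicate 2 of vehicle LUM was not called with LPC or with LPC + dantrolene (edgeR adjusted p = 0.107 and 0.122), nor with LPC without replicate 2 of that group (0.165). The part of any of these lists in the lower ANGPTL4 values was not tested.

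The third comparison asked whether LPC acted on these genes in the presence of dantrolene, and it shares no library with the comparison of LPC and vehicle. Between LPC + dantrolene and dantrolene, 3 of 13216 genes were called, or 0.0227% (edgeR's quasi-likelihood test), and 169 had an unadjusted p under 0.05. ANGPTL4 and PDK4 were the only 2 genes called higher, beside 0.0151% of all genes called in that direction and 0.00757% called lower. Ranked by p-value over all genes tested, ANGPTL4 was 1, PDK4 was 2, PLIN2 was 48 and CPT1A was 83. The third gene called, which has no symbol in the files and was named after its values were seen, was ENSSSCG00000048802. It had 46, 49 and 52 counts with dantrolene, 6, 18 and 6 with vehicle, and at most 1 count in each LPC + dantrolene library. Because it passed the filter on low counts only through the dantrolene group, its counts are given as a description, with no p.

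ANGPTL4 was at 121, 145 and 115 CPM with LPC + dantrolene, far above the 3 dantrolene libraries. The mean rose from 17.8 ± 6.39 to 127 ± 15.8 CPM (SD, n = 3), 7.15-fold (log2 fold change 2.84, SE 0.354, 95% interval 2.13 to 3.54, edgeR adjusted p = 7.59e-08). It was called in all 19 alternatives, with log2 changes between 2.57 and 3.09, and without replicate 2 of LPC + dantrolene the value was 2.73 (edgeR adjusted p = 2.92e-08).

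PDK4 was at 10.4, 2.98 and 10.1 CPM with LPC + dantrolene, or 198, 48 and 201 counts. Replicate 2 lay far below the other libraries of its group, yet above the highest dantrolene library, which was also from isolation 2. The mean was 7.82 ± 4.196 CPM, 6.83-fold above the 1.11 ± 0.829 CPM of dantrolene (log2 fold change 2.77, SE 0.459, edgeR adjusted p = 0.000272). Within isolations 1, 2 and 3 the log2 difference was 4.60, 0.57 and 3.16. Without replicate 2 of LPC + dantrolene it was 3.14 (edgeR adjusted p = 9.06e-07), and without replicate 2 of dantrolene 3.51 (edgeR adjusted p = 0.000239).

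PDK4 lost this call in 4 of 18 alternatives. The edgeR adjusted p was 0.0990 without replicate 1 of dantrolene, 0.0740 without replicate 2 of LPC, 0.0868 without TMM scaling and 1.00 with only the 2 groups compared, while the log2 change stayed between 2.35 and 2.80. The replicate left out from LPC is no part of this comparison and entered it through the filter, the scaling and the estimate of spread, which all groups share. Endothelial markers, at 58.1 to 66.7 CPM with LPC + dantrolene, overlapped the range with dantrolene.

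PLIN2 was at 118, 87.7 and 104 CPM with LPC + dantrolene. All 3 lay above the dantrolene libraries, with log2 differences of 0.92, 0.88 and 0.79 within isolations 1, 2 and 3, more even than those between LPC and vehicle. CPT1A, at 182, 262 and 155 CPM, was higher than with dantrolene in 3 of 3 isolations as well, and the groups did not overlap. How many of all genes separate in this way was not computed. Neither was called: the fitted log2 difference was 0.87 for PLIN2 (95% interval 0.23 to 1.502) and 0.76 for CPT1A (95% interval 0.11 to 1.41), each with an edgeR adjusted p of 1.00. The median log2 change of the 8 members was 0.57, beside 0.0035 over all genes.

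HADHA and ACADVL had their highest level of all 12 libraries in replicate 2 of LPC + dantrolene. HADHA was at 107, 256 and 131 CPM in that group and ACADVL at 51.0, 127 and 59.3 CPM, and the other libraries of the group lay below all vehicle libraries for both genes. Without replicate 2 the log2 difference from dantrolene turned from 0.20 to −0.28 for HADHA and from 0.37 to −0.16 for ACADVL, and neither was called in any setting. PPARA (13.8, 9.004 and 9.27 CPM) and PPARD (31.7, 43.8 and 34.1 CPM) differed from dantrolene by 0.01 and 0.07 on the log2 scale, with 95% intervals of −0.69 to 0.70 and −0.58 to 0.72.

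**Figure D2:**
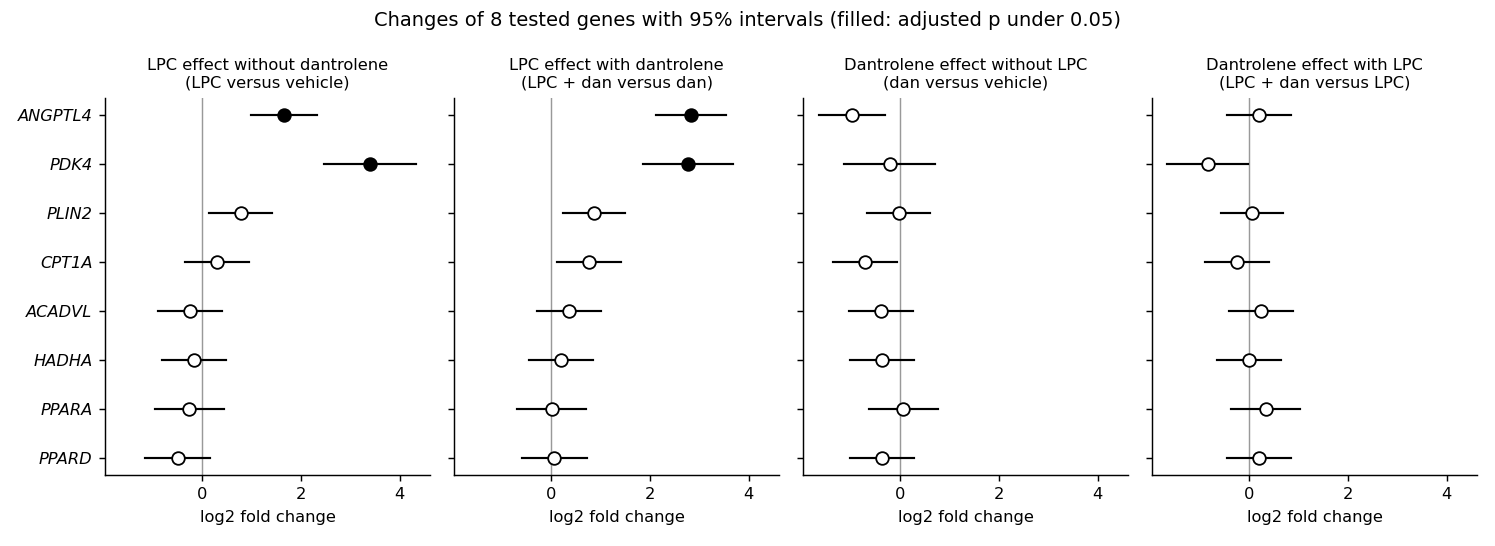
Fitted log2 fold changes (x axes) of the 8 tested genes (y axis) with 95% intervals, for LPC without and with dantrolene and for dantrolene without and with LPC, filled points having an edgeR adjusted p under 0.05. ANGPTL4 and PDK4 are filled in both LPC panels and no gene is filled in either dantrolene panel.

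Against vehicle, LPC + dantrolene raised the same 2 members (edgeR's quasi-likelihood test), beside 7.14% of all genes called, 6.23% higher and 0.9% lower. The log2 change was 1.85 for ANGPTL4 (edgeR adjusted p = 6.69e-05) and 2.55 for PDK4 (edgeR adjusted p = 4.39e-05), and 1.81 and 2.99 without replicate 2 of LPC + dantrolene. This comparison shares its vehicle libraries with that of LPC, so the calls are not separate evidence. PLIN2 was not called (log2 difference 0.83, 95% interval 0.20 to 1.47, edgeR adjusted p = 0.117). Without replicate 2 of LPC + dantrolene it was (0.99, edgeR adjusted p = 0.00776), as with DESeq2's Wald test (adjusted p = 0.0189) and with total counts alone (edgeR adjusted p = 0.0305). CPT1A, 0.04 on the log2 scale, had a 95% interval of −0.61 to 0.69.

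Whether dantrolene changed these genes in cells given LPC was the next question. No member was called between LPC + dantrolene and LPC (edgeR's quasi-likelihood test), where 0.507% of all genes were called, 0.219% higher and 0.288% lower, and 874 had an unadjusted p under 0.05, nor did DESeq2 call one. PDK4 was lower with dantrolene in 3 of 3 isolations, and the groups did not overlap, by 0.55, 2.35 and 0.17 on the log2 scale. Its fitted log2 difference was −0.84 (95% interval −1.67 to −0.02, edgeR adjusted p = 0.747), and without replicate 2 of LPC + dantrolene it was −0.47 (edgeR adjusted p = 0.929). ANGPTL4 differed by 0.20 (95% interval −0.46 to 0.85, edgeR adjusted p = 0.968), higher in 2 of 3 isolations, and its libraries overlapped those of LPC. For PLIN2 the log2 difference was 0.05 (95% interval −0.58 to 0.68) and for CPT1A −0.26 (95% interval −0.90 to 0.39).

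The interaction, which is the LPC effect with dantrolene less that without it, called no member (edgeR's quasi-likelihood test), beside 4.65% of all genes (0.159% higher and 4.49% lower), and DESeq2 called none. At an unadjusted p under 0.05, 1919 genes passed, ANGPTL4 among them. For ANGPTL4 the LPC effect was larger by 1.18 on the log2 scale where dantrolene was present, and larger in 3 of 3 isolations (95% interval 0.25 to 2.11, edgeR adjusted p = 0.160). For PDK4 it was smaller by 0.62 with an interval that spanned 0 (−1.87 to 0.62), and the difference was 1.319, −2.66 and −0.31 in isolations 1, 2 and 3.

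Ordered by group mean, ANGPTL4 ran from dantrolene (17.8 CPM) through vehicle (35.1 CPM) and LPC (111 CPM) to LPC + dantrolene (127 CPM), and only vehicle and LPC were neighbours whose libraries did not overlap. PLIN2 took the same order, from 56.6 through 58.0 and 99.4 to 103 CPM, with the same single gap. PDK4 ran from dantrolene (1.11 CPM) through vehicle (1.33 CPM) and LPC + dantrolene (7.82 CPM) to LPC (14.1 CPM), with gaps on both sides of LPC + dantrolene. For CPT1A, ACADVL, HADHA, PPARA and PPARD every pair of neighbours overlapped. The share of all genes with such gaps, or with groups that did not overlap in the comparisons above, was not computed. Both are therefore a description of these genes alone.

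The genes whose log2 CPM followed ANGPTL4 most closely over the 12 libraries, among 11494 tested genes with a symbol, were PDK4 (Pearson's r = 0.864), PLIN2 (0.792), ENPP4 (0.778), COA7 (0.757) and KLF11 (0.734). Those closest to PDK4 were DEPDC1 (0.885), ANGPTL4 (0.864), ABRAXAS1 (0.825), RBM15 (0.821) and YOD1 (0.815). PDK4 and PLIN2 were thus the closest of all these genes to ANGPTL4, but the 12 points come from 4 treatments and share library and depth. After the group means were subtracted, r was 0.287 between ANGPTL4 and PDK4 and −0.03 between ANGPTL4 and PLIN2. Without replicate 2 of LPC + dantrolene, r between ANGPTL4 and PDK4 was 0.932. CPT1A followed ANGPTL4 with r = 0.713, and 0.504 after the group means were subtracted.

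**Figure D3:**
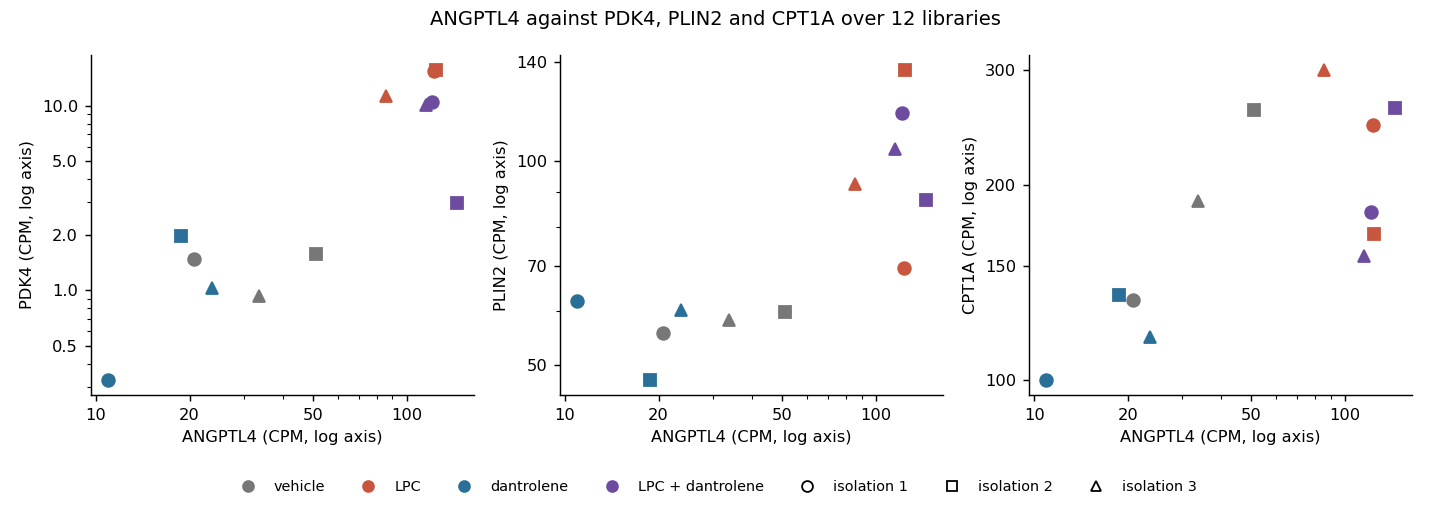
PDK4, PLIN2 and CPT1A (y axes, TMM-scaled CPM, log scales) against ANGPTL4 (x axes, TMM-scaled CPM, log scale), with 1 point per library, colours giving the group and shapes the isolation. Libraries with LPC form a cloud of their own at high ANGPTL4, and replicate 2 of LPC + dantrolene has the lowest PDK4 (2.98 CPM) among them.

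The wider pathway was read from 10 lists of receptors, targets, transport and oxidation genes, which hold 4 to 23 tested genes each. Together they hold 95 different tested genes, of which LPC raised 10 and lowered none, beside 8.54% of all genes called higher and 0.144% called lower. Both the 10 and the share of PPAR targets given next include CREB3L3, whose call the filter fixed in advance. Of 13 receptors and partners tested, LPC raised 1, or 7.69%, the corepressor NRIP1 (edgeR's quasi-likelihood test, as for all lists). Of 23 tested PPAR targets 4 were called higher (17.4%), which were ANGPTL4, PDK4, the medium chain dehydrogenase ACADM, and CREB3L3, a liver-enriched transcription factor that passed the filter on low counts only through the LPC group and so had to differ. The carnitine shuttle (6 tested), peroxisomal β-oxidation (11) and lipid droplet and lipolysis lists (12) had no called gene, with median log2 changes of −0.05, −0.07 and −0.29 beside −0.18 over all genes. LPC raised 2 of 17 mitochondrial β-oxidation genes, or 11.8% (ACADM and DECR1, which handles unsaturated acyl chains) and 2 of 11 uptake and activation genes (ACSL4, an acyl-CoA synthetase, and CAV1, a protein of caveolae). It also raised 2 of 11 genes of pyruvate dehydrogenase and its kinases (PDK4 and the subunit DLD), 1 of 5 that set malonyl-CoA (PRKAA1, a catalytic subunit of AMPK) and 1 of 4 angiopoietin-like genes (ANGPTL4). With so few genes a list, shares such as 7.69% and 11.8% lie near that of all genes.

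Of the 13 tested receptors and partners, 12 were not called with LPC, PPARA and PPARD among them, and their log2 differences ran from −0.76 for LPIN1 to 0.69 for MED1. RXRA and RXRB, the partners with which PPARs bind DNA, differed by −0.46 and −0.35, and the corepressor NCOR1 by −0.25. PPARG had 8 counts in all, 7 of them in replicate 1 of LPC + dantrolene, and PPARGC1A had 8 and RXRG 5 counts over the 12 libraries, so none of these was tested. Other targets that were not tested included FABP4 (2 counts in all) and UCP3 (no count). Among the kinases of pyruvate dehydrogenase, PDK4 was the only one called, since PDK1 differed by 0.79 (edgeR adjusted p = 0.151), PDK2 by −0.53 (edgeR adjusted p = 0.508) and PDK3 by −0.34 on the log2 scale.

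Unlike ANGPTL4 and PDK4, the other list genes that LPC raised were, but for CREB3L3 and CAV1, also called higher with dantrolene alone. ACADM was at 11.8, 9.98 and 9.70 CPM with vehicle, 39.1, 44.2 and 33.6 CPM with LPC, 23.2, 33.7 and 31.7 CPM with dantrolene, and 44.4, 14.0 and 34.2 CPM with LPC + dantrolene. Its log2 change against vehicle was 1.89, 1.49 and 1.56 in these 3 comparisons, which share the vehicle libraries (edgeR adjusted p = 4.35e-05, 0.00159 and 0.00101). NRIP1, DECR1, ACSL4 and DLD were likewise called higher in all 3, with log2 changes between 1.12 and 1.73, and PRKAA1 with LPC and with dantrolene. CAV1 was called with LPC (log2 change 1.08, edgeR adjusted p = 0.0301) and not with dantrolene (0.79, edgeR adjusted p = 0.174). The calls of ACADM and ACSL4 held in all 3 comparisons under every alternative, and those of NRIP1 and PRKAA1 with LPC did as well. With LPC, DECR1 lost its call without replicate 2 or 3 of vehicle or replicate 2 of LPC (edgeR adjusted p = 0.0686 to 0.0738), and DLD without replicate 2 of vehicle (0.0612). CAV1 lost it without any 1 of the vehicle or LPC libraries (edgeR adjusted p = 0.0626 to 0.167) and with the isolation as a block (0.0737). With dantrolene and with LPC + dantrolene, NRIP1, DECR1 and DLD each lost their calls without replicate 2 or 3 of vehicle, without replicate 2 of dantrolene in the first case (as did PRKAA1, edgeR adjusted p = 0.0579), and without replicate 1 or 3 of LPC + dantrolene in the second. DLD with dantrolene also lost its call without replicate 3 of dantrolene, and with either treatment without replicate 2 of LPC (edgeR adjusted p = 0.0654, 0.0587 and 0.0581). The block ended the calls of NRIP1 and DLD with LPC + dantrolene (edgeR adjusted p = 0.0586 and 0.0734). Each of these 7 genes had its lowest level within LPC + dantrolene in replicate 2, as with ACSL4 at 122, 27.8 and 122 CPM.

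CREB3L3 was at 2.00, 1.14 and 2.26 CPM with LPC, or 39, 21 and 44 counts. It had 1 count in 1 vehicle library, none with dantrolene, and 8 counts in replicate 1 of LPC + dantrolene with none in the other 2. Because it entered the tests only through the group where it was high, its counts are given as a description, with no fold and no p. Between LPC + dantrolene and dantrolene, ANGPTL4 and PDK4 were the only genes called of any list.

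**Figure D4:**
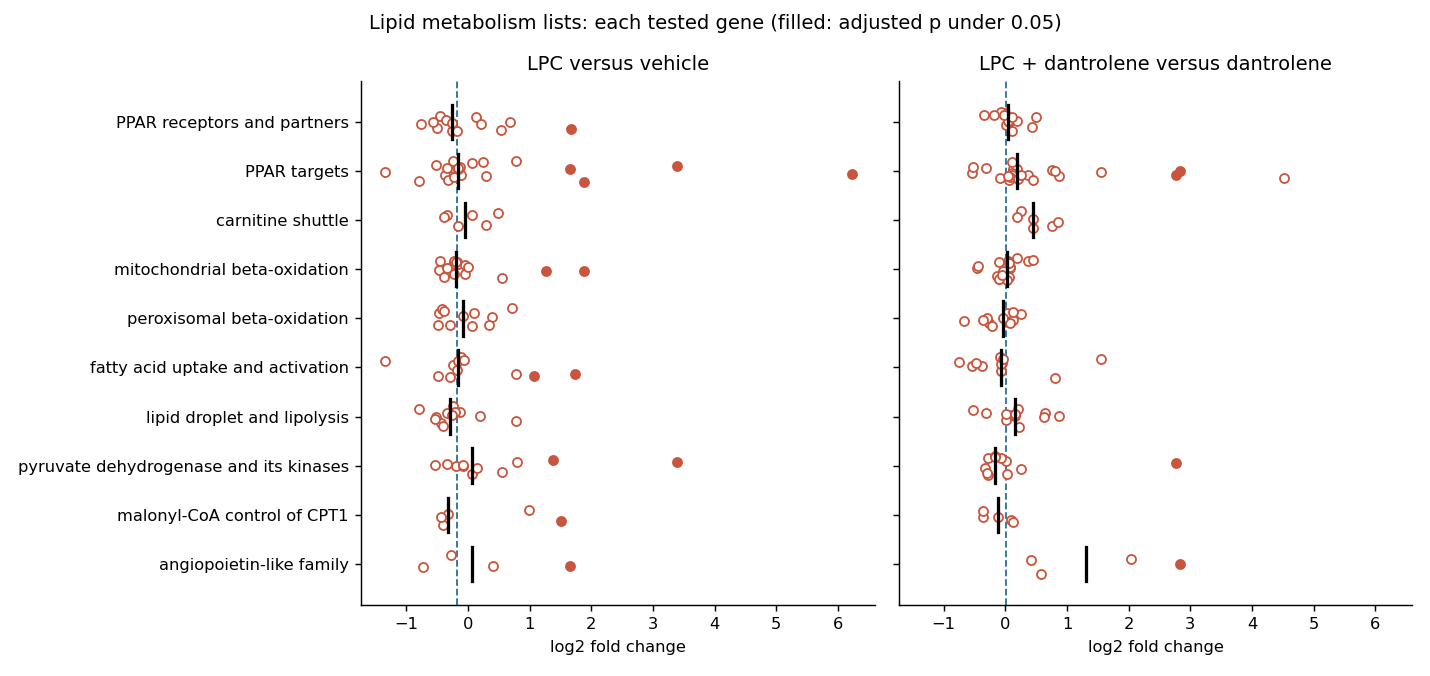
Fitted log2 fold change (x axes) of each tested gene (1 point per gene) in 10 lists of lipid metabolism genes (y axis) for LPC against vehicle and for LPC + dantrolene against dantrolene, with filled points called by edgeR, bars at each list's median and a dashed line at the median of all genes. Most points lie near the dashed line in both panels, and the rightmost point in each is CREB3L3. Its fitted value is no measure of its size, because the reference group, vehicle or dantrolene, held at most 1 count.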

How the data were processed

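RNA of paVICs was sequenced after poly-T selection in 12 libraries, 3 in each of 4 groups. The authors deposited whole-number counts per gene, not scaled for library size, which they had adjusted for the isolation with the ComBat function. Counts from before that step were not analysed here, and adjusted p-values can be too small, because the adjustment spent degrees of freedom unknown to the tests. The paper names STAR for alignment, whereas the submitters' processing notes list HISAT2 2.0.5, R 4.1.1 and DESeq2 1.32.0 with the build Sscrofa11.1. The counting tool and annotation release are not given in the sources used here. The authors also deposited tables of 4 of their own comparisons, with base means, fold changes, standard errors, test statistics and p-values, which were not used.

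The tests used edgeR 4.0.16 under R 4.3.3. Low genes were removed by filterByExpr, given the 4 groups, libraries were scaled by TMM, and the 12 libraries entered 1 quasi-likelihood model whose sole term was the group. Benjamini-Hochberg adjustment ran over 13216 genes, with calls at an adjusted p under 0.05. Means are given with the SD of 3 libraries, which were taken to differ in isolation. Because the counts had been adjusted for the isolation, neither this SD nor the differences within isolations show the spread before that step. Log2 CPM for correlations used a prior count of 2. Alternatives were DESeq2 1.42.0, scaling by RLE or by totals without factors, dropping the filter or requiring 10 counts in each library, fitting the compared groups alone, adding the isolation as a replicate block, and each of the 12 libraries left out in turn. The script was tested on simulated data with known changes.

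The sample titles give a replicate number, and the paper describes experiments on separate isolations, each with a single replicate per group. Same-numbered libraries were therefore taken to pair, but the main fit was unpaired. Deviations from the group means correlated with a median r of −0.152 (range −0.536 to 0.207) within isolations and 0.108 between them, an outcome that the ComBat step itself sets. The 9 genes, the pathway lists and the cell type marker lists were chosen with earlier results of these data known. Named were the 9 genes, every list gene called in any comparison, the genes of the receptor list, and for ANGPTL4 and PDK4 the 5 genes with the highest correlation. Of 170 list genes, 160 had a row. Some list genes are not reported here by name. Promoter sequences were not analysed here.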

Additional observations from a re-analysis of the deposited data

Results flagged for a closer look

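In 5 of 87 tested pathway genes outside the 9 members, all in the lower direction, beside 4.49% of all genes called lower, the effect of LPC with dantrolene differed from that without it, with an edgeR adjusted p for the interaction under 0.05. The interaction was −1.74 on the log2 scale for NRIP1 (edgeR adjusted p = 0.0241), −1.83 for ACADM (0.0126), −1.79 for ACSL4 (0.0204), −1.55 for CAV1 (0.0425) and −1.88 for PRKAA1 (0.0111). All 5 were higher than vehicle with either agent alone in 3 of 3 isolations and had their lowest LPC + dantrolene level in replicate 2. Without that library the interaction was −1.47 for NRIP1 (edgeR adjusted p = 0.0304), −1.55 for ACADM (0.0109), −1.43 for ACSL4 (0.0288), −1.25 for CAV1 (0.0525) and −1.58 for PRKAA1 (0.00960). Without replicate 2 of dantrolene, which was the highest dantrolene library for each of these genes, none of the 5 was called (edgeR adjusted p between 0.0993 and 0.231). None was called without replicate 1 of LPC, without replicate 2 of LPC or with total counts alone either (NRIP1 0.0825, 0.121 and 0.0817, ACADM 0.0539, 0.102 and 0.0525, ACSL4 0.160, 0.143 and 0.0993, CAV1 0.140, 0.132 and 0.107, PRKAA1 0.0672, 0.0929 and 0.0525, all edgeR adjusted p). Leaving out vehicle libraries ended the calls of ACADM (replicate 2, edgeR adjusted p = 0.0664), ACSL4 (replicates 1 and 2), NRIP1 (replicates 2 and 3) and CAV1 (all 3), and CAV1 also lost its call without replicate 3 of LPC or of dantrolene. With the isolation as a block NRIP1, ACSL4 and CAV1 were not called (edgeR adjusted p = 0.0735, 0.0829 and 0.0867).

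CAV1 also stood out because dantrolene went with higher levels in cells without LPC and lower levels in cells with it, in every isolation. CAV1 was at 34.4, 29.1 and 23.6 CPM with vehicle and 43.8, 62.6 and 44.6 CPM with dantrolene, against 64.8, 52.7 and 66.4 CPM with LPC and 50.8, 14.7 and 42.8 CPM with LPC + dantrolene. The log2 difference between LPC + dantrolene and LPC was −0.76, and neither step was called on its own. The interaction given above tests whether the 2 steps differ, and not whether they go in opposite directions, which was not tested. The interstitial marker LUM was also called in the interaction (−1.58, edgeR adjusted p = 0.0367), and not without replicate 2 of vehicle, LPC or dantrolene (edgeR adjusted p = 0.217, 0.286 and 0.177). In none of the 8 tested members was such a pattern found.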

How the results depend on the processing

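ANGPTL4 and PDK4 stayed called with LPC and with LPC + dantrolene, each against vehicle, under every alternative in which they were tested. With at least 10 counts in every library PDK4 was not tested, and the members called fell to 1 against vehicle for LPC, 1 for LPC + dantrolene, and 1 for LPC + dantrolene against dantrolene. The last count was also 1 without TMM scaling and when only the 2 groups were fitted. For dantrolene against vehicle the count was 1, ANGPTL4, with no filter, with at least 10 counts in every library and with only the 2 groups compared. With each library left out in turn the members called numbered 2 to 2 for LPC and for LPC + dantrolene against vehicle, 0 to 1 for dantrolene, 1 to 2 for LPC + dantrolene against dantrolene, and 0 to 0 against LPC and for the interaction. The isolation as a replicate block left 2, 0, 2, 0, 2 and 0 members called in the 6 comparisons, the same as without the block.

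Sign changes were confined to uncalled differences. With total counts alone, the log2 difference was 0.034 for PDK4 and 0.20 for PLIN2 with dantrolene, −0.088 for PLIN2 in the interaction, and 0.12 for ACADVL between LPC + dantrolene and vehicle. With DESeq2 and with RLE size factors alike it was 0.020 for PLIN2 with dantrolene, 0.054 for ACADVL between LPC + dantrolene and vehicle, and 0.016 for HADHA between LPC + dantrolene and LPC, the last 0.011 with at least 10 counts in every library. With only the 2 groups compared it was 0.070 for ACADVL against vehicle and −0.0015 for PPARA between LPC + dantrolene and dantrolene, where the replicate block gave −0.013.

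With single libraries left out, PDK4 ran from −0.95 to 0.25 with dantrolene and from −1.11 to 0.11 in the interaction, and PLIN2 from −0.081 to 0.079 with dantrolene, −0.15 to 0.35 between LPC + dantrolene and LPC, and −0.12 to 0.38 in the interaction. Between LPC + dantrolene and vehicle CPT1A ran from −0.17 to 0.31, ACADVL from −0.48 to 0.22, HADHA from −0.59 to 0.056 and PPARA from −0.16 to 0.23. Against LPC the ranges were −0.31 to 0.46 for ACADVL, −0.48 to 0.23 for HADHA and −0.049 to 0.41 for PPARD, and against dantrolene −0.16 to 0.60 for ACADVL, −0.28 to 0.43 for HADHA, −0.22 to 0.11 for PPARA and −0.093 to 0.15 for PPARD. PPARA ran from −0.050 to 0.19 with dantrolene, and HADHA from −0.18 to 0.60 in the interaction. The cause was not tested.

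Over all genes, the calls between LPC + dantrolene and LPC went from 67 (29 higher, 38 lower) to 7 (5 higher, 2 lower) with total counts alone, 16 with only the 2 groups and 19 with the block. Against vehicle the 943 calls were 553 with only the 2 groups and 618 with the block, the 3 against dantrolene were between 1 and 6, and the 614 of the interaction were 234 with total counts alone and 280 with the block. Single libraries moved these counts further. The interaction had 4 calls without replicate 2 of LPC, 34 without replicate 2 of dantrolene and 937 without replicate 3 of LPC + dantrolene. Dropping replicate 2 of LPC + dantrolene turned the 943 into 2099, and dropping its replicate 3 gave 508, the 67 ranged from 9 (without replicate 2 of LPC) to 140 (without replicate 2 of LPC + dantrolene), the 1148 for LPC from 687 to 1692 and the 1163 for dantrolene from 429 (replicate 2 of dantrolene left out) to 1799, the low value for LPC coming without its replicate 2 and both high values without replicate 2 of LPC + dantrolene. With 3 libraries a group, the 95% intervals of the uncalled members were wide enough to hold changes of either sign in most comparisons, and PDK4 rests on 6 to 52 counts per dantrolene library.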
